A study of Mus musculus with 6 samples.

Results

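The miR-344 family is a group of related mouse miRNAs, and its 3p arms were described here in the right substantia nigra (SN). The members were the 8 annotated 3p arms of the family found in the deposited table, among 1393 annotated miRNAs and 1231 predicted loci. They were chosen by their normalized counts in the same comparison that is described below. Their differences between the groups are therefore given as a description. Calls for members come from a fit over all annotated miRNAs and, after that choice, are no independent evidence. All 8 passed the filter on low values that was applied to every annotated miRNA.

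Small RNA was sequenced from 3 libraries of the hα-syn(A53T) + Ang-(1-7) group and 3 libraries of the hα-syn(A53T) group. hα-syn(A53T) is human α-synuclein with the Parkinson's disease substitution A53T, and Ang-(1-7) is an angiotensin peptide that binds the receptor Mas. According to the methods, male C57BL/6J mice of both groups were injected with an AAV carrying hα-syn(A53T) in the right SNpc at 8 weeks of age, while the sample labels describe an overexpressing strain. The hα-syn(A53T) + Ang-(1-7) group was then infused above the SN for 4 weeks with Ang-(1-7), 1.1 nmol in 0.25 μL each hour, and the hα-syn(A53T) group was infused with artificial cerebrospinal fluid at 0.25 μL per hour for the same time. The comparison asks which miRNAs differ with Ang-(1-7) when both groups carry the transgene. No source states whether a library held tissue of 1 mouse or of pooled mice, so the calls rest on a spread between libraries that may be only technical. Libraries without hα-syn(A53T) were not analysed here.

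A miRNA is cut from a hairpin precursor whose stem gives a 5p and a 3p arm, and the arm that is kept is loaded into an Argonaute protein. Bases 2 to 8 of the loaded arm, the seed, pair with messenger RNAs and lower their stability or translation. Paralogs with the same seed can therefore share targets, while a shifted or altered seed points to other messenger RNAs. The miR-344 family is known from rodents as a brain-expressed family, encoded in the imprinted chromosome region that holds Snrpn and Ndn.

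The mature sequences show why the family cannot be read as 1 miRNA: its 8 members held 6 different seeds. The sequences are from RefSeq (GRCm38.p6), written 5′ to 3′ with the seed in capitals, and all 8 members were matched by name. They are ordered here by seed, beginning with the seed of the most abundant arm.
mmu-miR-344-3p: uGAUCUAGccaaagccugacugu
mmu-miR-344c-3p: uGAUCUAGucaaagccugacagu
mmu-miR-344d-3p: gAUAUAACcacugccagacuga
mmu-miR-344e-3p: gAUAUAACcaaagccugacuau
mmu-miR-344h-3p: gGUAUAACcaaagcccgacugu
mmu-miR-344b-3p: cAUUUAGCcaaagccugacugu
mmu-miR-344f-3p: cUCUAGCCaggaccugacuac
mmu-miR-344g-3p: cAGGCUCUagccaggggcuuga

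mmu-miR-344-3p and mmu-miR-344c-3p shared the seed GAUCUAG and matched at 21 of 23 bases. Their differences were C9U and U21A, with the base of mmu-miR-344-3p first and positions counted from 1 at its 5′ end. mmu-miR-344b-3p matched mmu-miR-344-3p at 20 of 22 bases when its start was set 1 base further in, with the differences G2C and C5U in the numbering of mmu-miR-344-3p. With the shifted start and C5U inside it, the seed of the b arm was AUUUAGC. mmu-miR-344d-3p and mmu-miR-344e-3p shared the seed AUAUAAC, and mmu-miR-344h-3p differed from mmu-miR-344e-3p at 3 of 22 bases (G2A, C16U and G21A, numbered in mmu-miR-344h-3p), of which G2A lies in the seed. Outside the seeds, mmu-miR-344-3p and the b, c and e arms held the same 11 bases, CAAAGCCUGAC, which were found in 4 of 1679 mature mouse miRNAs in RefSeq (0.238%), these 4 arms and no other. The f and g arms shared another 11 bases, CUCUAGCCAGG, found in 2 of 1679 (0.119%). This stretch is not outside the seeds. It starts at base 1 of the f arm and base 5 of the g arm, so it covers the f seed and part of the g seed. Because several arms are this close and the sources used here do not give the rule for reads that fit more than 1 hairpin, the division of reads between the closest arms is uncertain.

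In RefSeq on GRCm38.p6, the family had 13 hairpins on the minus strand of chr7:61683124-62085310, a span of 402 kb, and 12 of them gave the 8 members. The deposited values were made on another build, so these positions come from the annotation alone. A mature arm that several hairpins encode has 1 value: mmu-miR-344-3p comes from 2 hairpins, mmu-miR-344d-3p from 3 and mmu-miR-344h-3p from 2, and the files do not divide their reads. The host and neighbouring genes named here are from the GENCODE annotation. Mir344d-3, Mir344e, Mir344h-1, Mir344h-2, Mir344b, Mir344c and Mir344 lay in introns of the long non-coding RNA gene A230057D06Rik (chr7:61704519-61928690). Mir344-2 lay in an intron of the neighbouring long non-coding RNA gene A330076H08Rik (chr7:61930137-61982358). Mir344g (chr7:61982289-61982359) reached just past the upper coordinate of that gene, which is its start on the minus strand. Mir344d-1, Mir344d-2 and Mir344f lay between genes. Ndn began 261 kb beyond the last hairpin, followed by Magel2 at 292 kb, Mkrn3 at 332 kb and Peg12 at 377 kb, which are known in mouse as imprinted genes expressed from the paternal chromosome. Snrpn, the nearest protein-coding gene on the other side, lay 1543 kb before the first hairpin. No other RefSeq hairpin lay within 1 Mb of the family's hairpins.

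The values were normalized counts, meaning reads scaled by a size factor for each library. Total reads over the annotated miRNAs ran from 14796519 to 17088611 per library, and 1067 to 1132 annotated miRNAs were detected. Libraries of the same group differed by far more than counting error, so counting intervals understate the error of abundant arms. A difference was called when limma, fitted on log2(value + 1) over 1065 annotated miRNAs, gave an adjusted p under 0.05. In that fit 59 miRNAs were called higher (5.54%) and 43 lower (4.04%) in the hα-syn(A53T) + Ang-(1-7) group, with a median log2 difference of -0.04. Fewer cells of a type and less RNA per cell cannot be told apart in such bulk tissue.

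The SN libraries were rich in miRNAs known from neurons, with miR-9-5p between 1441286 and 2312130 normalized counts, but several marker lists differed between the groups. Of 8 neuronal miRNAs, 5 were called higher and 1 (miR-124-3p) lower, and their summed level was 3396901 to 4673798 in Ang-(1-7) libraries and 2969604 to 3340221 in hα-syn(A53T) libraries. Most of that sum was miR-9-5p and miR-128-3p, neither of which was called, so it says little of the called ones. Of 5 Hox-encoded miRNAs, which are known from hindbrain and spinal cord, 1 was called lower, and their sum ran from 1374 to 31986 in Ang-(1-7) libraries and from 13017 to 75783 in hα-syn(A53T) libraries. The called one, miR-196a-5p, was at 0 in all 3 Ang-(1-7) libraries, against 4.10, 9.27 and 7.08 normalized counts in hα-syn(A53T) libraries. That call thus rests on few reads. All 3 muscle miRNAs were called lower, with sums of 14872 to 21779 in Ang-(1-7) libraries and 41727 to 86139 in hα-syn(A53T) libraries. Oligodendrocyte miRNAs had 1 of 4 called lower (sums of 35886 to 66079 in Ang-(1-7) libraries and 60729 to 168387 in hα-syn(A53T) libraries), and choroid plexus and ciliated cell miRNAs had 2 of 5 called lower. In the latter list the called ones were miR-204-5p and miR-211-5p. The others, miR-34b-5p, miR-34c-5p and miR-449a-5p, had log2 differences of 0.26, 0.10 and 0.55 and were not called. None of the 2 endothelial, 2 smooth muscle, 6 leukocyte and microglia or 3 red cell miRNAs was called. The part of these differences in the miR-344 values was not tested, apart from the fit with Hox-encoded miRNAs as a covariate that is given below.

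A single arm dominated the family. mmu-miR-344-3p measured 16062, 18730 and 13254 normalized counts in the Ang-(1-7) libraries, against 10678, 9636 and 8493 in the hα-syn(A53T) libraries. It was the 104th most abundant annotated miRNA by its mean. mmu-miR-344d-3p came next with 4216, 3551 and 4417 in the Ang-(1-7) libraries, against 1449, 1539 and 3808 in the hα-syn(A53T) libraries. mmu-miR-344b-3p had 1559, 1350 and 1416 in the Ang-(1-7) libraries, against 1102, 1050 and 1287 in the hα-syn(A53T) libraries. In each library these 3 arms came in the same order, and together they held 93.3% to 93.9% of the summed 3p arms in Ang-(1-7) libraries and 95.03% to 95.65% in hα-syn(A53T) libraries.

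The next arms were of moderate abundance. mmu-miR-344c-3p measured 820, 1123 and 780 normalized counts in the Ang-(1-7) libraries, against 300.4, 223 and 342 in the hα-syn(A53T) libraries. mmu-miR-344f-3p measured 489, 299 and 493 in the Ang-(1-7) libraries, against 277, 265 and 297 in the hα-syn(A53T) libraries. Their order differed by group: the c arm was above the f arm in all 3 Ang-(1-7) libraries, without overlap, whereas in hα-syn(A53T) libraries the ranges overlapped and the c arm was above in 2 of 3.

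The remaining arms were sparse. mmu-miR-344h-3p had 48, 58 and 41 reads in Ang-(1-7) libraries, against 15, 20 and 18 reads in hα-syn(A53T) libraries. mmu-miR-344e-3p had 33, 7 and 47 reads in Ang-(1-7) libraries, against 29, 40 and 27 reads in hα-syn(A53T) libraries. mmu-miR-344g-3p had 24, 30 and 24 reads in Ang-(1-7) libraries, against 14, 13 and 26 reads in hα-syn(A53T) libraries. In Ang-(1-7) libraries the ranges of neighbours in this order overlapped among the h, e and g arms. In hα-syn(A53T) libraries the e arm was above the others, with its lowest library (27.3 normalized counts) just over the highest of the g arm (26.3), while the g and h arms overlapped. The mature arms are 21 to 23 bases long, so no length correction was made between them, and how readily each sequence enters a library was not tested.

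**Figure D1:**
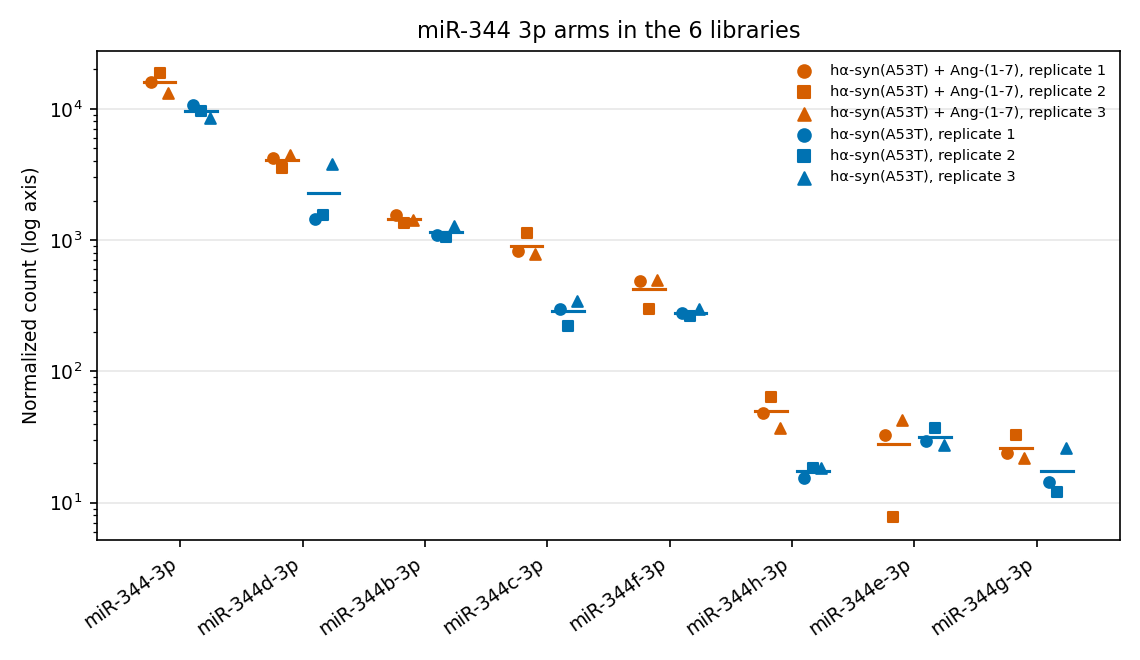
Normalized counts of the 8 miR-344 3p arms on a log axis in each of 3 hα-syn(A53T) + Ang-(1-7) libraries (orange, left of each pair) and 3 hα-syn(A53T) libraries (blue, right); symbols mark the replicate number and bars the group mean. Means in Ang-(1-7) libraries ran from 26.3 for miR-344g-3p to 16015 for miR-344-3p. For miR-344-3p and the b, c, f and h arms, the Ang-(1-7) libraries lay above the hα-syn(A53T) libraries without overlap. Replicate 3 of the hα-syn(A53T) libraries was high for miR-344d-3p.

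Summed over the 8 arms, the family reached 23251, 25157 and 20462 normalized counts in Ang-(1-7) libraries, against 13865, 12781 and 14300 in hα-syn(A53T) libraries. The means were 22957 ± 2361 in the hα-syn(A53T) + Ang-(1-7) group and 13649 ± 782 in the hα-syn(A53T) group (SD, n = 3 each), a ratio of 1.68, and the libraries of the groups did not overlap. The family took 0.136% to 0.150% of the annotated reads in Ang-(1-7) libraries and 0.0827% to 0.0914% in hα-syn(A53T) libraries. Most of this sum is the most abundant arm, so the sum says little of the others.

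mmu-miR-344c-3p had the largest log2 difference of the 8. It averaged 908 ± 187 normalized counts in the hα-syn(A53T) + Ang-(1-7) group and 289 ± 60.2 in the hα-syn(A53T) group (SD, n = 3 each), and its lowest Ang-(1-7) library lay above its highest hα-syn(A53T) library. Its log2 difference was 1.65 (SE 0.26, 95% interval 1.07 to 2.23) and it was called higher. The call was made with any 1 library left out, where the log2 difference ran from 1.48 to 1.79. In a fit that also held the level of the Hox-encoded miR-10a-5p and miR-10b-5p (their log2 values averaged) as a term, the log2 difference was 1.40 and was not called. These covariate miRNAs varied widely within the groups, with miR-10b-5p at 1118, 577 and 21338 normalized counts in Ang-(1-7) libraries and 6887, 48662 and 39970 in hα-syn(A53T) libraries.

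mmu-miR-344h-3p was the other called arm, at a far lower level than the c arm. It averaged 49.7 ± 13.4 normalized counts in the hα-syn(A53T) + Ang-(1-7) group and 17.4 ± 1.74 in the hα-syn(A53T) group (SD, n = 3 each). The libraries of the groups did not overlap, although the exact Poisson intervals, which cover counting error only, met between the lowest Ang-(1-7) library (26.7 to 50.5) and hα-syn(A53T) replicates 2 (11.3 to 28.6) and 3 (10.8 to 28.8). The log2 difference was 1.43 (SE 0.33, 95% interval 0.70 to 2.17) and was called higher. It was not called when replicate 1 or 2 of either group was left out (log2 differences of 1.24 to 1.48), or with the miR-10 covariate (1.17).

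The dominant arm, mmu-miR-344-3p, was not called. It averaged 16015 ± 2738 normalized counts in the hα-syn(A53T) + Ang-(1-7) group and 9602 ± 1093 in the hα-syn(A53T) group (SD, n = 3 each), with no overlap between the libraries. Its log2 difference was 0.73 (SE 0.21, 95% interval 0.27 to 1.19). It passed the threshold in 4 of 17 other settings, among them without Ang-(1-7) replicate 3 (0.86), and the log2 difference was 0.43 with the miR-10 covariate. The ratio of mmu-miR-344-3p to mmu-miR-344c-3p, arms with the same seed, was 19.6, 16.7 and 16.99 in Ang-(1-7) libraries, against 35.5, 43.1 and 24.8 in hα-syn(A53T) libraries. Its ratio to mmu-miR-344h-3p was 335, 293 and 356 in Ang-(1-7) libraries, against 694, 520 and 466 in hα-syn(A53T) libraries. Neither ratio overlapped between the groups, and both were lower in each Ang-(1-7) library. The ratios of mmu-miR-344-3p to the d, b, f, e and g arms did overlap. The c and h arms were the ones called in this comparison, so nothing is read from their ratios.

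mmu-miR-344d-3p depended on a single library. Its mean was 4062 ± 453 normalized counts in the hα-syn(A53T) + Ang-(1-7) group and 2265 ± 1337 in the hα-syn(A53T) group (SD, n = 3 each), a coefficient of variation of 11.2% in Ang-(1-7) libraries and 59.0% in hα-syn(A53T) libraries. hα-syn(A53T) replicate 3, at 3808, lay within the range of the Ang-(1-7) libraries, while the other hα-syn(A53T) libraries were far below it. The log2 difference was 0.99 (SE 0.35, 95% interval 0.21 to 1.77) and was not called; without hα-syn(A53T) replicate 3 it was 1.44 and was called. That library also had the highest level of the oligodendrocyte miRNA miR-219a-2-3p, with 25940, 26958 and 54884 normalized counts in Ang-(1-7) libraries and 44630, 59096 and 152067 in hα-syn(A53T) libraries. The other oligodendrocyte miRNAs of the marker list did not peak there. In hα-syn(A53T) replicates 1, 2 and 3, miR-219a-5p measured 1104, 961 and 837 normalized counts. miR-338-3p measured 5334, 5600 and 4372, and miR-338-5p 9661, 12246 and 11112. The part of such differences in the level of the d arm was not tested.

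mmu-miR-344b-3p and mmu-miR-344f-3p differed least among the arms whose libraries did not overlap. The b arm averaged 1442 ± 107 normalized counts in the hα-syn(A53T) + Ang-(1-7) group and 1146 ± 125 in the hα-syn(A53T) group (SD, n = 3 each). Its log2 difference of 0.33 (SE 0.20, 95% interval -0.12 to 0.79) was not called. The f arm averaged 427 ± 111 in the hα-syn(A53T) + Ang-(1-7) group and 279.8 ± 16.4 in the hα-syn(A53T) group (SD, n = 3 each). Its log2 difference of 0.57 (SE 0.26, 95% interval -0.02 to 1.16) was not called, and its lowest Ang-(1-7) library (298.6) barely cleared its highest hα-syn(A53T) library (297.5).

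The other sparse arms gave no call and overlapped between the groups. mmu-miR-344g-3p averaged 26.3 ± 5.98 normalized counts in the hα-syn(A53T) + Ang-(1-7) group and 17.6 ± 7.66 in the hα-syn(A53T) group (SD, n = 3 each), a log2 difference of 0.61 (SE 0.39, 95% interval -0.27 to 1.48). Leaving out hα-syn(A53T) replicate 2 gave 0.39, and leaving out hα-syn(A53T) replicate 3 gave 0.92. mmu-miR-344e-3p averaged 27.8 ± 18.0 in the hα-syn(A53T) + Ang-(1-7) group and 31.4 ± 5.08 in the hα-syn(A53T) group (SD, n = 3 each), a log2 difference of -0.45 (SE 0.56, 95% interval -1.70 to 0.79). It was the only member with a negative value, which rested on Ang-(1-7) replicate 2, where its 7.71 normalized counts had an exact Poisson interval of 3.10 to 15.9. Without that library its log2 difference was 0.26, and with the miR-10 covariate 0.47.

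Over the family, 2 of 8 arms were called higher, beside 5.54% of all annotated miRNAs, and 0 were called lower, beside 4.04%. In 5 arms (mmu-miR-344-3p and the b, c, f and h arms) all 3 Ang-(1-7) libraries were above all 3 hα-syn(A53T) libraries, beside 14.2% of all annotated miRNAs, and in 0 arms were all 3 below, beside 14.0%. The median log2 difference of the 8 arms was 0.67, with 7 of 8 positive, beside a median of -0.04 and 510 of 1065 positive over all. Since the arms were selected on this comparison, nothing is read from these shares. When replicate 1 or 2 of either group was left out, the called arms were 1 of 8, and with the miR-10 covariate 0 of 8.

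**Figure D2:**
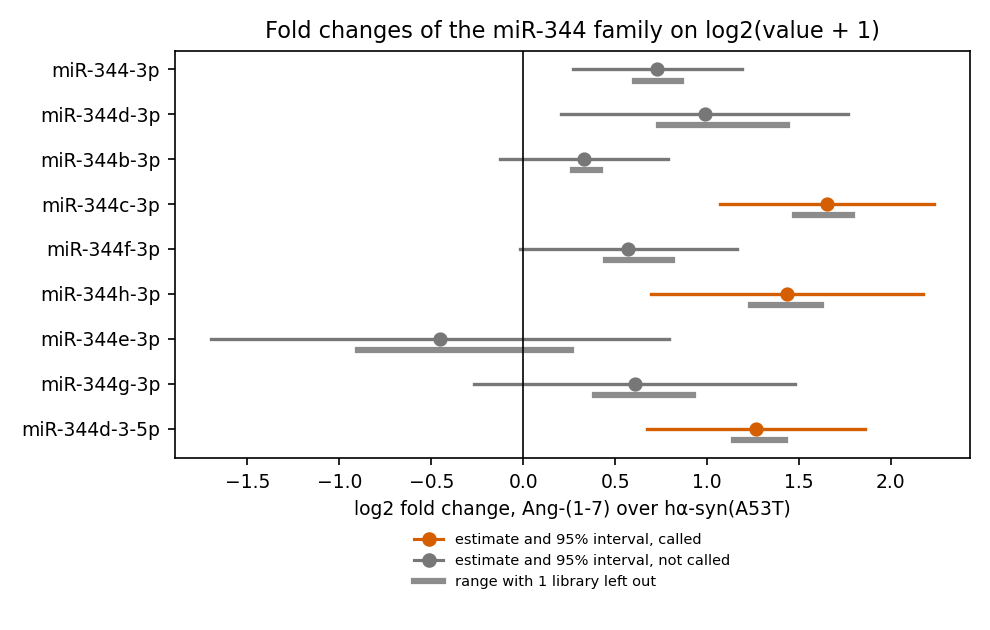
Log2 difference of each miR-344 3p arm and of miR-344d-3-5p, hα-syn(A53T) + Ang-(1-7) over hα-syn(A53T), on log2(value + 1), with 95% intervals from limma; orange marks called arms and the thick grey bar below each the range with 1 library left out. The intervals of miR-344c-3p (1.07 to 2.23) and miR-344h-3p (0.70 to 2.17) lay furthest to the right among the 3p arms, and the range of miR-344e-3p crossed 0.

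Within the family, the shares of the c, h and b arms did not overlap between the groups, and those of the other 5 arms did. For levels, 14.2% of all annotated miRNAs were higher without overlap and 14.0% lower. For shares no such background was worked out, and the arms were selected on this comparison, so nothing is read from this count. mmu-miR-344-3p held 69.1%, 74.5% and 64.8% of the summed 3p arms in Ang-(1-7) libraries, against 77.0%, 75.4% and 59.4% in hα-syn(A53T) libraries, which overlapped. mmu-miR-344d-3p held 18.1%, 14.1% and 21.6% in Ang-(1-7) libraries, against 10.4%, 12.0% and 26.6% in hα-syn(A53T) libraries. In hα-syn(A53T) replicate 3 the share of the d arm was thus highest and that of mmu-miR-344-3p lowest of the 6 libraries. mmu-miR-344c-3p held 3.53%, 4.46% and 3.81% in Ang-(1-7) libraries, against 2.17%, 1.75% and 2.39% in hα-syn(A53T) libraries, higher with no overlap. mmu-miR-344h-3p was likewise higher with no overlap, at 0.206%, 0.254% and 0.182% in Ang-(1-7) libraries, against 0.111%, 0.145% and 0.127% in hα-syn(A53T) libraries. mmu-miR-344b-3p had the opposite order, with 6.71%, 5.37% and 6.92% in Ang-(1-7) libraries, against 7.95%, 8.21% and 9.0% in hα-syn(A53T) libraries, so it was a smaller share of the family in each Ang-(1-7) library although its level was higher.

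**Figure D3:**
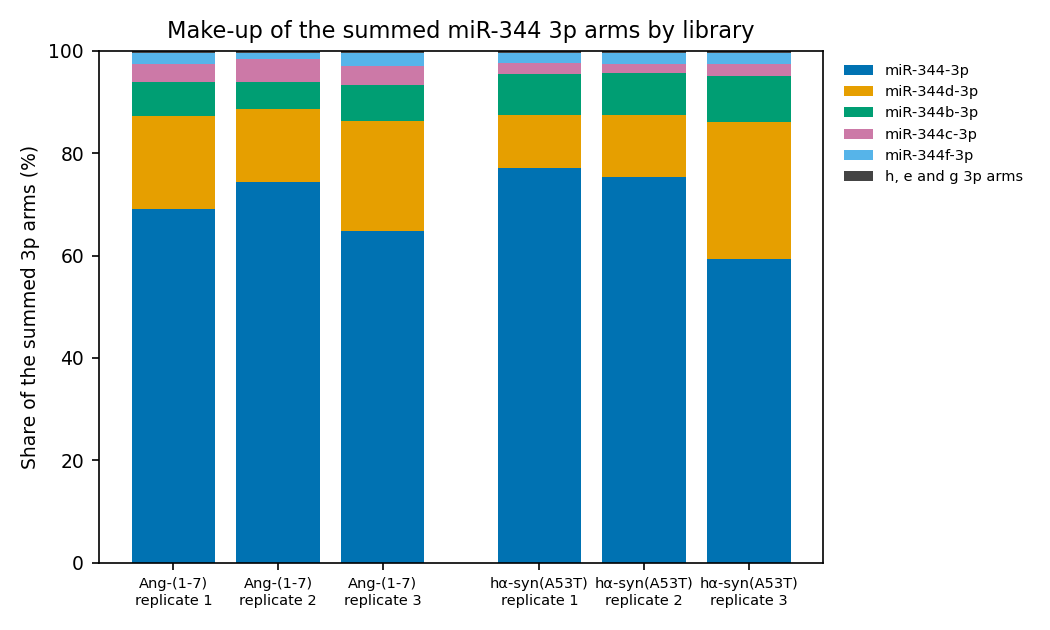
Share of each 3p arm in the summed miR-344 3p arms, in percent, for 3 hα-syn(A53T) + Ang-(1-7) libraries (left) and 3 hα-syn(A53T) libraries (right), each bar adding up to the whole family. miR-344-3p filled 59.4% to 77.0% of each bar, the d arm was widest in hα-syn(A53T) replicate 3 (26.6%), and the c arm was 3.53% to 4.46% in Ang-(1-7) libraries and 1.75% to 2.39% in hα-syn(A53T) libraries.

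Grouped by seed, most of the family's summed level lay in a pair of seeds. Arms with the seed GAUCUAG, mmu-miR-344-3p and mmu-miR-344c-3p, held 73.3% of the summed level over the 6 libraries (61.8% to 79.2% by library). Arms with the seed AUAUAAC, mmu-miR-344d-3p and mmu-miR-344e-3p, held 17.4% (10.7% to 26.8%). The seed AUUUAGC of mmu-miR-344b-3p held 7.07%, and the other seeds held 1.93% or less each. Among the 1174 annotated miRNAs matched to a RefSeq sequence, 2 outside the family had the seed of a member. miR-410-3p, which also has the seed AUAUAAC, is encoded on chromosome 12 and was more abundant than the d and e arms together.
miR-410-3p: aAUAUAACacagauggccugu
miR-410-3p measured 8964, 12926 and 13730 normalized counts in Ang-(1-7) libraries, against 7712, 8229 and 15015 in hα-syn(A53T) libraries. The groups overlapped, hα-syn(A53T) replicate 3 was again the highest of its group, and the log2 difference of 0.25 (SE 0.29, 95% interval -0.40 to 0.90) was not called. miR-7070-3p, which has the seed AGGCUCU of mmu-miR-344g-3p, had at most 3 reads in any library.

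The 5p side of the hairpins was sparsely read, with 1 exception. Besides the members, 10 annotated rows of the family were found, of which 8 passed the filter, and 9 of the 10 had at most 9 reads in any library. The 5p arm of the dominant paralog, miR-344-5p, had 6, 7 and 6 reads in Ang-(1-7) libraries, against 3, 3 and 1 reads in hα-syn(A53T) libraries, so that mmu-miR-344-3p had 2428 to 2680 reads for each of its 5p reads in Ang-(1-7) libraries and 3466 to 8394 in hα-syn(A53T) libraries. miR-344e-5p and miR-344h-5p have the same sequence and were listed with the same values, at most 2 reads, so they are 1 measurement. The exception was miR-344d-3-5p, the 5p arm of Mir344d-3 only.
miR-344d-3-5p: aGUCAGGCuagugguuauacucc
It measured 249.7, 169.7 and 219.6 normalized counts in Ang-(1-7) libraries, against 90.2, 76.0 and 95.1 in hα-syn(A53T) libraries, with no overlap. The means were 213 ± 40.4 in the hα-syn(A53T) + Ang-(1-7) group and 87.1 ± 9.94 in the hα-syn(A53T) group (SD, n = 3 each). Its log2 difference was 1.27 (SE 0.27, 95% interval 0.68 to 1.86) and was called higher, but not without Ang-(1-7) replicate 1 (1.15) or hα-syn(A53T) replicates 1 (1.30) or 2 (1.17), or with the miR-10 covariate (1.32). The 5p arm did not share the high value of hα-syn(A53T) replicate 3: mmu-miR-344d-3p had 16.9, 20.9 and 20.1 reads per read of miR-344d-3-5p in Ang-(1-7) libraries, against 16.1, 20.3 and 40.0 in hα-syn(A53T) libraries. The other hairpins of the d arm gave almost no 5p reads, with at most 5 for miR-344d-1-5p and at most 1 for miR-344d-2-5p.

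Along the chromosome, neighbouring hairpins differed widely in level. Mir344e, Mir344h-1 and Mir344h-2 (chr7:61735537-61742425 from the first to the last) gave the sparse e and h arms, whereas Mir344b, Mir344c and Mir344 in the same host gene gave arms with means of 1442, 908 and 16015 normalized counts in Ang-(1-7) libraries and 1146, 289 and 9602 in hα-syn(A53T) libraries. Of the called arms, the c and h arms both come from introns of A230057D06Rik, as do the b and e arms that were not called. For mmu-miR-344-3p the hairpins lie in both long non-coding RNA genes, and the reads cannot be assigned to either.

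**Figure D4:**
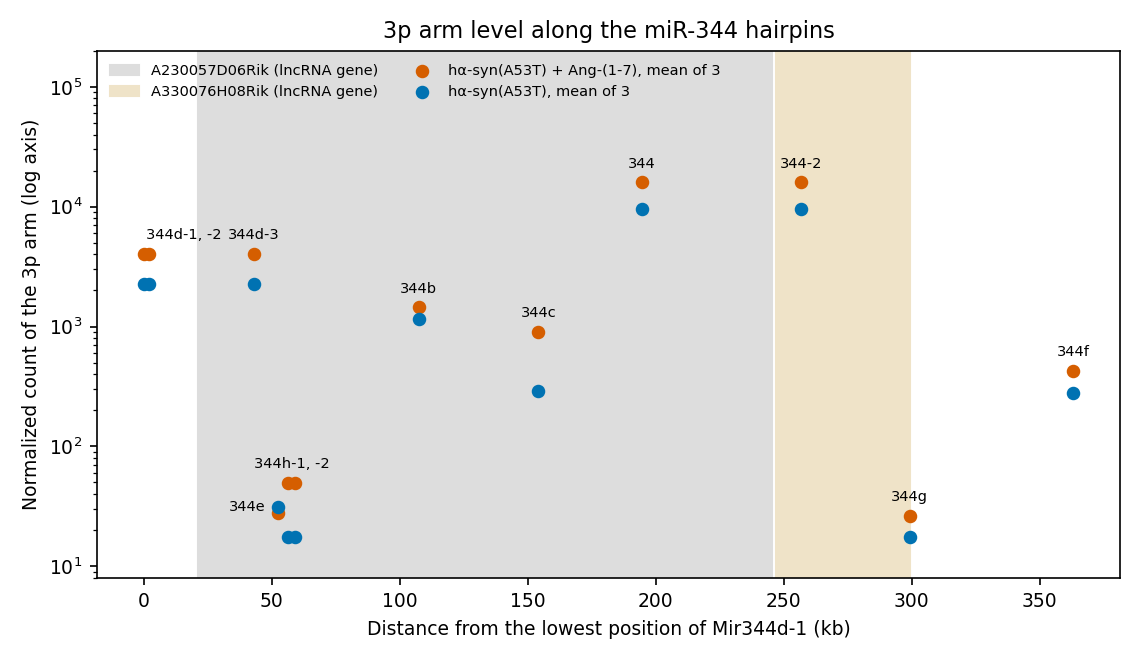
Group mean of the 3p arm of each miR-344 hairpin (log axis, normalized counts) against the distance in kb from the lowest position of Mir344d-1, with hα-syn(A53T) + Ang-(1-7) in orange, hα-syn(A53T) in blue and the long non-coding RNA genes shaded; an arm with several hairpins is drawn at each of them with its whole value. miR-344-3p stood at 16015 in Ang-(1-7) libraries and 9602 in hα-syn(A53T) libraries, far above the e, g and h arms, and Mir344i is not drawn because no 3p arm of it is annotated.

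The arms differed in how closely they followed the dominant arm from library to library. As a description over the 6 libraries, which share the group difference, the level of mmu-miR-344-3p correlated on the log2 scale with that of mmu-miR-344c-3p at r = 0.91 (rho = 0.83), with mmu-miR-344b-3p at r = 0.65 (rho = 0.66), with mmu-miR-344f-3p at r = 0.48 (rho = 0.60) and with mmu-miR-344d-3p at r = 0.47 (rho = 0.26). With the group means taken off, r was 0.36 for the c arm and -0.48, -0.76 and -0.66 for the b, f and d arms. Among 441 other annotated miRNAs with a mean of at least 100 normalized counts, 51 had r above 0.9 with mmu-miR-344-3p. The 5 most like it were miR-148a-5p (r = 0.99), miR-3059-5p (r = 0.98), miR-96-5p (r = 0.98), miR-138-1-3p (r = 0.98) and miR-434-5p (r = 0.98), with rho of 0.94 to 1, and with r between 0.86 and 0.94 once the group means were taken off. They were picked by their r over these same 6 libraries, so the high rho and remaining r follow in part from that choice. The measure r compares pattern and not size. miR-96-5p had a log2 difference of 4.66 and was called higher, far from the 0.73 of mmu-miR-344-3p. The other 4 were near it in size, with log2 differences of 0.65 to 0.85, and were not called.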

How the data were processed

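Small RNA of the right SN was measured in 6 libraries. The authors deposited signal values, which are normalized counts: reads divided by a size factor, for annotated miRNAs and, with separate size factors, for predicted loci. According to the submitters' processing notes the authors used Bowtie 1.2.3, DESeq2 1.10.1 and the build mm9. Not given in the sources used here were adapter trimming, the miRBase release and the counting rule. The table's comparison columns (group means, fold changes, standard errors, statistics and p-values), the summary sheet and the predicted loci were not used. That sheet gives the hα-syn(A53T) libraries other numbers than the labels, so replicate numbers only name samples.

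Groups were taken from the labels. limma 3.58.1 (R 4.3.3) with a trend was fitted on log2(value + 1) for annotated miRNAs that reached 1 normalized count in 3 or more libraries. The p-values were adjusted over these 1065 by Benjamini-Hochberg, and the fit was tested on simulated data. Within the annotated miRNAs every value was a whole multiple of 1 read (tolerance 1e-06). Size factors differ for the predicted loci, so the planned count models were not run. The members and lists were chosen with earlier results of these data known. Named were all members, the other rows of the family, miRNAs with a member's seed, the 5 miRNAs of mean at least 100 most like the dominant arm by Pearson r, and marker lists. Alternatives were other pseudocounts (0.1 and 5), filters, scalings and fits, a covariate (miR-10a-5p and miR-10b-5p), and each library left out. Sequences and hairpin positions are from RefSeq, and host and neighbouring genes are from GENCODE (Python 3.11.15, pandas 2.3.3, numpy 2.4.6, scipy 1.17.1, matplotlib 3.10.9).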

Additional observations from a re-analysis of the deposited data

How the results depend on the processing

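The direction of 7 of the 8 arms held under all alternatives in which they were tested, and mmu-miR-344c-3p was called in 16 of 17. The filter of at least 50 normalized counts in every library of 1 group tested 5 arms, without the h, e and g arms. Under it mmu-miR-344-3p and the c arm were called. The value of mmu-miR-344e-3p turned positive without Ang-(1-7) replicate 2 (log2 difference 0.26, with a range of -0.90 to 0.26 over the libraries left out) and with the miR-10a-5p and miR-10b-5p covariate (0.47). With that covariate the called annotated miRNAs were 22 in place of 102, and the called 3p arms 0 in place of 2. With 1 library left out they ranged from 27 to 111 and from 1 to 3: annotated calls were 46 and 53 without Ang-(1-7) replicate 1 and 2, and 33 and 27 without hα-syn(A53T) replicate 1 and 2, with 1 arm called in each. The log2 ratio of the summed 3p arms was 0.75, and 0.58 after quantile normalization. With the replicate block 112 annotated miRNAs and 3 arms (miR-344-3p and the c and h arms) were called, and with a robust prior 117 and 3. Same-numbered libraries correlated at 0.12, -0.09 and 0.18 in their deviations from the group means, so the numbers were not taken as pairs. The causes of these changes were not tested. The planned edgeR and DESeq2 fits were not run, and no alternative was added. Depth limits the h, e and g arms, which had at most 58 reads in a library.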
